A study of Rattus norvegicus with 3 samples.

Results

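The 10 genes described here encode the alpha and beta tubulins that make up most of the microtubule mass of the nervous system: TUBA1A, TUBA1B, TUBA1C and TUBA4A of the alpha family and TUBB2A, TUBB2B, TUBB3, TUBB4A, TUBB4B and TUBB5 of the beta family. They were chosen by symbol, as the tubulin isotypes of neurons and glia, and all 10 had an entry among the 12771 entries of the deposited table. RNA was taken from the supernatant left after thoracic spinal cord of female Sprague Dawley rats, 3 months old, was digested at 6 °C with a cold-active protease and its cells were spun down, a fraction the study prepared to enrich for axonal RNA. All rats had a laminectomy at T9. No-SCI rats had no more than this surgery, SCI rats also received a contusion of 250 kdyne, and a piece of cord just rostral to the injury was taken 24 h later. The labels give 2 No-SCI libraries and 1 SCI library, whereas 2 animals per condition are stated in the methods.

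Microtubules are hollow polymers of alpha and beta tubulin heterodimers. In axons they form the tracks for transport and hold the shape of the shaft, and in oligodendrocytes they carry myelin components out along the processes. The isotypes are close copies of each other that differ mainly in their acidic C-terminal tails, where most enzymes that modify tubulin act. Cells also adjust tubulin mRNA to the amount of free dimer by degrading the mRNA as it is translated.

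Each gene has 1 value per group, in FPKM (fragment numbers corrected for the length of the transcript and the size of the library), estimated by the authors over the libraries of that group. FPKM is a level per length, so levels of different genes can be set beside each other. There is no value for a single library, so no SD, n or test can be given for any gene, and it cannot be said which neighbours in an order of levels differ beyond the spread between animals. The words higher and lower describe the 2 group values alone. The methods state a sequencing depth per sample, but the table keeps no counts, so the number of reads behind each value is unknown. The log2 ratio of SCI over No-SCI had a median of −0.12 over all entries, and each ratio below can be read against that shift. The values of all 10 tubulins carry 6 significant digits or fewer. Of all entries, 58.6% carry more, and such a value may be a sum of several estimates. No entry has a value below 1 FPKM, so the level of a gene without an entry is unknown. Percentiles and percents of all entries cover the listed genes only.

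The table holds markers of several cell types. GAP43, a growth cone protein, had 1275 FPKM in No-SCI and 1406 FPKM in SCI, and UCHL1, an abundant neuronal hydrolase, had 111 and 81.8 FPKM, while SNAP25 and NEFM have no entry. Of all entries 56.3% were lower in SCI, and each count of lower markers can be read against that share. Of 14 neuron markers 12 were listed, 10 of them lower in SCI. Of 13 oligodendrocyte markers 12 were listed, among them MOBP with 44200 FPKM and BCAS1 with 36068 FPKM in No-SCI, and 11 of the 12 were lower in SCI. Of 11 astrocyte markers 6 were listed, all 6 lower in SCI and 5 at least 1.5-fold lower (26.3% of all entries), while GFAP and AQP4 have no entry. NDRG2 had 8001 FPKM in No-SCI and 3228 FPKM in SCI, and GLUL, glutamine synthetase, had 5858 and 5624 FPKM. All 10 meningeal fibroblast markers were at least 1.5-fold higher in SCI, where 16.9% of all entries were. All 11 skeletal muscle markers were at least 1.5-fold lower, where 26.3% of all entries were. MYH1 and MYH2 of the muscle list carry identical values in both groups, so 1 estimate may be counted more than once. Several values of both lists lie near 1 FPKM, the lowest value listed. All marker lists were chosen with earlier results of these data known, so their counts are a description and not independent evidence.

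The stretches before the RefSeq start sites of 4 tubulin genes are shown to give the promoters of the most abundant isotype, of the neuronal isotype and of the pair of isotypes with the lowest and the highest log2 ratio. Each is 100 bases long, 5′ to 3′, on the strand of the gene in GRCr8, a later assembly than the rn6 build of the expression values. TUBA1A lies at chr7:131995820-131995919 on the minus strand, TUBB3 at chr19:68365587-68365686 on the plus strand, TUBB4A at chr9:2012282-2012381 on the minus strand and TUBB5 at chr20:2917477-2917576 on the plus strand. Capitals mark TATAA (the TATA box core), CCAAT (the CCAAT box) and GGGCGG (a GC box), searched on both strands, with overlapping matches on the 2 strands merged.
TUBA1A: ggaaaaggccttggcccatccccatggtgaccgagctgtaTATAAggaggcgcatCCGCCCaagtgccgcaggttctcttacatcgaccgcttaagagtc
TUBB3: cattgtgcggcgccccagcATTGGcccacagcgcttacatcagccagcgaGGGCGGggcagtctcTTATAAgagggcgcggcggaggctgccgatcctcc
TUBB4A: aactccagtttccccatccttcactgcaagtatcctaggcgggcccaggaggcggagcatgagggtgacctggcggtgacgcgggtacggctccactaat
TUBB5: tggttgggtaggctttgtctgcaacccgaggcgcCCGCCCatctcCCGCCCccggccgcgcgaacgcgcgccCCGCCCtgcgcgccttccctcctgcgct

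In these windows 6 of the 10 tubulin genes held TATAA, against 11.3% of 27457 promoter windows of the same length. The match began 27 to 34 bases before the start site in TUBB4B, TUBA4A, TUBB2A and TUBB3. It began farther upstream in TUBA1C, at 49 bases, and in TUBA1A, at 60 bases. GGGCGG was found in 8 of the 10, against 23.1% of all windows, and CCAAT in 3 of the 10, against 17.3%. TUBB4A and TUBB2B held none of these letters in this window. TUBB5 held GGGCGG at 3 places and no TATAA. A match is a description of the letters, and their part in the levels below was not tested.

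The alpha tubulins held most of the tubulin signal, and TUBA1A alone made up 37.6% of the summed FPKM of the 10 genes in No-SCI and 34.5% in SCI. TUBA1A is the main alpha isotype of postmitotic neurons, and its mutations cause malformations of cortex. It had 3133.5 FPKM in No-SCI and 2636 FPKM in SCI, a log2 ratio of −0.25, and ranked 40 and 50 among all entries. TUBA1B, an isotype expressed in nearly all cells, had 1760 and 1681 FPKM, a log2 ratio of −0.07 that changed sign to 0.05 when the median of all entries was centred at 0.

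TUBA1A was 1.78 times as abundant as TUBA1B in No-SCI and 1.57 times in SCI. The remaining alpha isotypes were several times less abundant. TUBA4A, whose gene does not encode the C-terminal tyrosine of the other isotypes and which is mutated in some cases of amyotrophic lateral sclerosis, had 593 FPKM in No-SCI and 495 FPKM in SCI, a log2 ratio of −0.26. TUBA1C, another broadly expressed isotype, had 454 and 539 FPKM, a log2 ratio of 0.25, the one alpha isotype with a higher value in SCI. TUBA1C and TUBA4A exchanged places in the order of the alpha family.

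**Figure D1:**
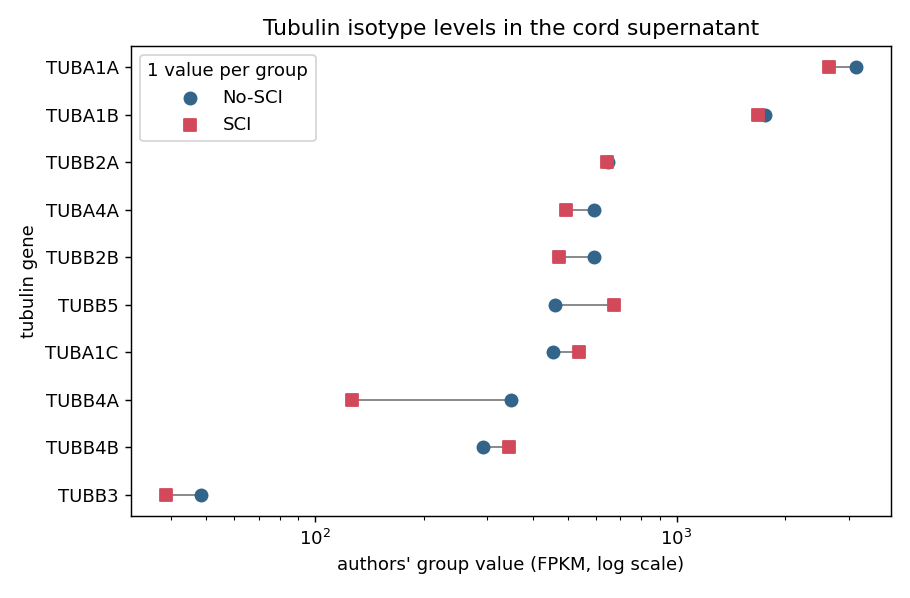
FPKM of the 10 tubulin genes on a log scale, with a circle for the No-SCI value and a square for the SCI value of each gene, 1 value per group and hence no error bar. TUBA1A and TUBA1B lie highest in both groups, TUBB3 lies lowest in both, and the widest gap between circle and square is that of TUBB4A, from 349 to 127 FPKM.

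Among the beta tubulins TUBB2A was the most abundant in No-SCI and TUBB5 in SCI. TUBB2A and TUBB2B, near-identical and neighbouring genes that are enriched in neurons, had 646 and 592 FPKM in No-SCI. In SCI they had 641 and 473 FPKM, log2 ratios of −0.01 and −0.32. The sign of the TUBB2A ratio changed under each scaling, to 0.11 with the median centred. TUBB5, the broadly expressed isotype called TUBB in human, had 461 FPKM in No-SCI and 671 FPKM in SCI, a log2 ratio of 0.54 and a place at percentile 81.7 of all ratios. It moved from the third to the first place among the 6 beta isotypes. TUBB4B, also broadly expressed and a main tubulin of cilia, had 293 and 344 FPKM, a log2 ratio of 0.24.

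TUBB3, the beta isotype that is largely confined to neurons and that the study stained as an axon marker, had the lowest level of the 10 genes in both groups. It had 48.5 FPKM in No-SCI and 38.7 FPKM in SCI, at percentiles 73.0 and 70.2. TUBB3 made up 2.03% of the summed FPKM of the beta isotypes in No-SCI and 1.69% in SCI. TUBA1A was 64.6 times as abundant in No-SCI and 68.0 times in SCI. The log2 ratio of TUBB3, −0.32, can be set beside a median of −0.97 over the 12 listed of 14 neuron markers, whose levels summed to 1882 FPKM in No-SCI and 1708 FPKM in SCI. GAP43 carried most of that sum, and without it, an alternative chosen after seeing the data, the other 11 markers summed to 607 and 302 FPKM. Of the 12 markers 8 were at least 1.5-fold lower in SCI, against 26.3% of all entries, and 0 were as much higher, against 16.9%. NEFL, the light neurofilament subunit, had 78.1 and 26.0 FPKM, and THY1, a surface protein of projection neurons, had 297 and 136 FPKM. The other way went 2 of the 12, GAP43 and NEFH, another neurofilament subunit, the latter with 8.60 and 9.45 FPKM. In bulk RNA, fewer neuronal fragments and less RNA per fragment cannot be told apart.

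TUBB4A stood apart from the other 9 genes. This isotype is abundant in brain and in myelinating oligodendrocytes, and its mutations cause a hypomyelinating leukodystrophy. It had 349 FPKM in No-SCI and 127 FPKM in SCI, a 2.75-fold lower value and a log2 ratio of −1.46, or −1.34 relative to the median of all entries. Its rank among all entries went from 574 to 1552, and its share of the beta isotypes from 14.6% to 5.54%. The log2 ratio lay at percentile 4.35 of all entries, and 3.10% of the 1933 entries with a mean of at least 100 FPKM had a ratio as low or lower. TUBB5 was 1.32 times as abundant as TUBB4A in No-SCI and 5.28 times in SCI. Over the same comparison the 12 listed oligodendrocyte markers had a median log2 ratio of −1.58, with 10 of 12 at least 1.5-fold lower (26.3% of all entries). Their summed level was 88692 FPKM in No-SCI and 48618 FPKM in SCI, and MOBP and BCAS1 carried most of it in both groups. CNP, an enzyme of the myelin sheath whose product binds tubulin, had 1887 and 615 FPKM, and MAG, a myelin adhesion protein, had 272 and 87.4 FPKM. MOBP had 44200 and 27648 FPKM, a log2 ratio of −0.68. ASPA was the 1 listed oligodendrocyte marker that was higher in SCI, with 238 and 319 FPKM. MBP, a defining marker, has no entry. The 6 listed astrocyte markers had a median log2 ratio of −1.36, with 5 of 6 at least 1.5-fold lower. The 12 listed neuron markers had one of −0.97, with 8 of 12 as much lower. The part of oligodendrocyte, astrocyte or neuronal material in the TUBB4A value was not tested.

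As a group the 10 genes lay close to the shift of all entries. Of the 10, 7 were lower and 3 higher in SCI, where 56.3% and 43.7% of all entries were. Their median log2 ratio was −0.16, against −0.12 over all 12771 entries and 0.035 over entries with a mean of at least 100 FPKM. Relative to the median of all entries 5 lay above and 5 below. At least 1.5-fold lower was 1 of 10, TUBB4A, where 26.3% of all entries and 19.6% of entries with a mean of at least 100 FPKM passed the same fold. At least 1.5-fold higher was 0 of 10, against 16.9% of all entries and 18.5% of the abundant ones. TUBB5 lay just under that fold at 1.46 and passed it under each of the 3 scalings. With TUBB4A left out, the other 9 ratios ran from −0.32 to 0.54 with a median of −0.07. The lower and upper quartiles of all entries were −0.61 and 0.37, and 8 of the 10 tubulin ratios lay between them, all but those of TUBB4A and TUBB5.

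**Figure D2:**
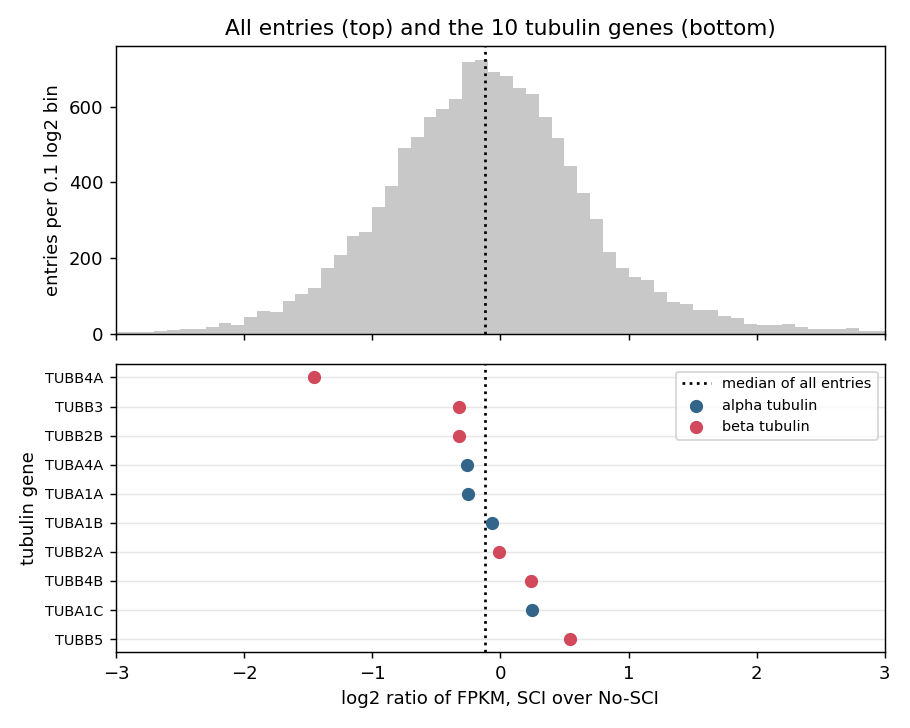
Log2 ratio of SCI over No-SCI, with all entries as a histogram in bins of 0.1 above and the 10 tubulin genes as points below, alpha isotypes in blue and beta isotypes in red. The dotted line is the median of all entries at −0.12, and 81 entries beyond 3 in size are outside the axis. TUBB4A at −1.46 is the single tubulin gene far from the others.

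The summed level of the 10 tubulins changed by −8.2% from No-SCI to SCI. The 10 genes summed to 8329 FPKM in No-SCI and 7645 FPKM in SCI, which was 0.664% and 0.629% of the summed FPKM of all entries. The 4 alpha isotypes summed to 5940 and 5350 FPKM, a log2 ratio of −0.15. The 6 beta isotypes summed to 2389 and 2295 FPKM, a log2 ratio of −0.06, and without TUBB4A to 2040 and 2168 FPKM. The ratio of alpha to beta was 2.49 in No-SCI and 2.33 in SCI. The difference of SCI minus No-SCI was −222 FPKM for TUBB4A and 210 FPKM for TUBB5. The SCI order of the beta family was TUBB5, TUBB2A, TUBB2B, TUBB4B, TUBB4A and TUBB3.

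TUBB6, a beta isotype outside the 10 genes that is expressed in many tissues other than neurons, had a ratio in the opposite direction to TUBB4A. It had 207 FPKM in No-SCI and 643 FPKM in SCI, a 3.10-fold higher value and a log2 ratio of 1.63. Of entries with a mean of at least 100 FPKM, 2.02% had a ratio as high or higher. TUBB6 was 0.595 times as abundant as TUBB4A in No-SCI and 5.06 times in SCI. Its share of the beta isotypes, itself included, was 7.99% in No-SCI and 21.9% in SCI, which placed it close to TUBB5 at 22.8% and TUBB2A at 21.8%. With TUBB6 counted, the beta sum was 2596 FPKM in No-SCI and 2938 FPKM in SCI. The summed level of the 10 meningeal fibroblast markers went from 68.7 to 897 FPKM over the same comparison, and that of the 11 skeletal muscle markers from 441 to 49.0 FPKM. The part of either cell type in the values of TUBB5 and TUBB6 was not tested.

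**Figure D3:**
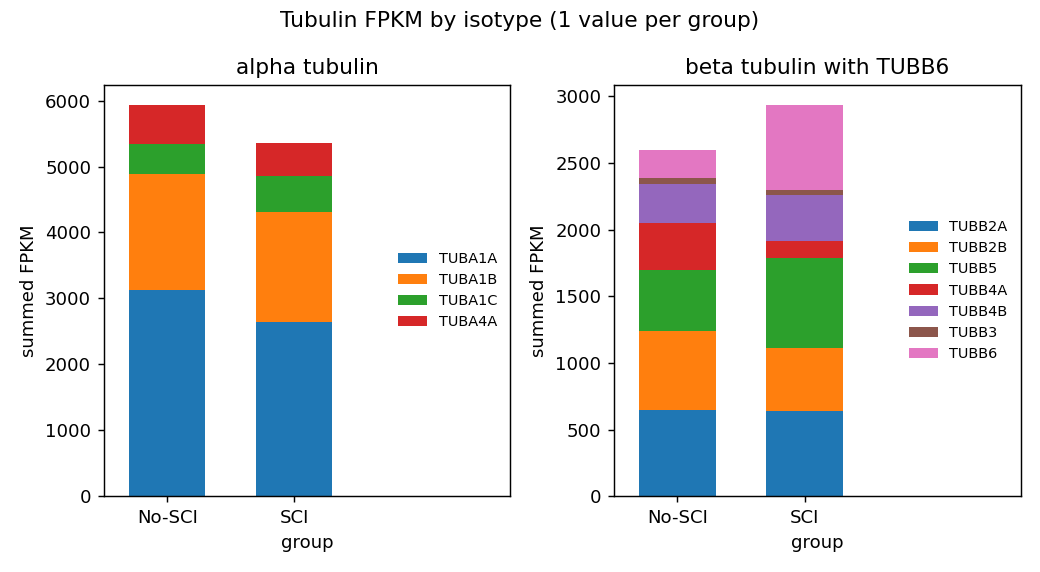
Summed FPKM of the alpha isotypes (left) and of the beta isotypes with TUBB6 (right) in No-SCI and SCI, each bar starting at 0 and divided by gene, with 1 value per group. The beta bars show TUBB4A narrowing from 349 to 127 FPKM while TUBB5 widens from 461 to 671 FPKM and TUBB6 from 207 to 643 FPKM.

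Of the 10 other tubulin genes, 7 were listed, and TUBA3A, TUBA3B and TUBAL3 have no entry. Of the 7, 3 were higher and 4 lower in SCI, where 43.7% and 56.3% of all entries were. Their median log2 ratio was −0.46. Besides TUBB6, the gamma tubulins TUBG1 and TUBG2, which nucleate microtubules at ring complexes, were higher in SCI, with 19.8 and 36.9 FPKM for TUBG1 and 7.07 and 14.7 FPKM for TUBG2. TUBD1, the centriolar delta tubulin, had 21.9 and 8.84 FPKM, and TUBE1, epsilon tubulin, had 19.2 and 13.9 FPKM. TUBA8, an alpha isotype, had 10.6 and 7.03 FPKM, and TUBB1, the beta isotype of platelets, had 4.72 and 2.27 FPKM.

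Genes that fold tubulin had a higher median log2 ratio than the tubulins themselves, 0.20 against −0.16. New tubulin passes from prefoldin to the CCT chaperonin and then to the cofactors TBCA to TBCE, which assemble the dimer. All 21 genes of that route were listed, 13 of them higher and 8 lower in SCI, where 43.7% and 56.3% of all entries were. At least 1.5-fold higher were 3 of 21, no larger a share than the 16.9% of all entries, and as much lower were 2 of 21, against 26.3%. TBCA, which holds beta tubulin, had 909 FPKM in No-SCI and 1821 FPKM in SCI, and TBCC, which triggers release of the finished dimer, had 28.8 and 88.8 FPKM. PFDN4, a prefoldin subunit, had 56.2 and 87.7 FPKM. TBCEL, a relative of TBCE that destabilises tubulin, had 20.0 and 8.92 FPKM. PFDN5 and ARL2, with TBCA the most abundant of the list, had 478 and 604 FPKM and 516 and 444 FPKM.

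Of the 3 autoregulation genes, TTC5, which recognises the first residues of nascent tubulin, had 44.8 FPKM in No-SCI and 29.5 FPKM in SCI. SCAPER, the adaptor that TTC5 recruits, had 44.1 and 21.9 FPKM, and CNOT11, a subunit of the deadenylase complex recruited in turn, had 6.54 and 9.76 FPKM.

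Of 28 genes that modify tubulin 15 were listed, 10 of them lower in SCI, where 56.3% of all entries were lower. At least 1.5-fold lower were 8 of 15, against 26.3% of all entries, and as much higher 0 of 15, against 16.9%. The median log2 ratio was −0.71. ATAT1, which acetylates a lysine of alpha tubulin on the inside of the microtubule, had 551 FPKM in No-SCI and 277 FPKM in SCI. The deacetylases of that residue were lower as well, SIRT2 with 1411 and 695 FPKM and HDAC6 with 27.9 and 16.2 FPKM. SIRT2 is known as a myelin protein of oligodendrocytes, whose markers were lower over the same comparison, and its source was not tested. TTLL5, a polyglutamylase, had 47.7 and 14.5 FPKM, and AGTPBP1 and AGBL5, which remove glutamates from tubulin, had 168 and 96.6 FPKM and 25.4 and 11.9 FPKM. SVBP, the partner of the vasohibins that remove the terminal tyrosine, had 200 and 293 FPKM.

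Proteins that bind free tubulin or sever microtubules were led by STMN1, stathmin, with 3363 FPKM in No-SCI and 2909 FPKM in SCI, a log2 ratio of −0.21. STMN4, another stathmin of the nervous system, had 1270 and 494 FPKM. Over the list 14 of 15 genes were listed, 6 at least 1.5-fold lower (26.3% of all entries) and 0 as much higher (16.9% of all entries), with a median log2 ratio of −0.52. DPYSL2, the collapsin response mediator that carries tubulin dimers in axons, had 15.1 and 6.61 FPKM, and DPYSL4, CRMP1 and STMN2, the last also a neuron marker, were at least 1.5-fold lower too. DPYSL3 had 85.2 and 101 FPKM.

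Genes of nucleation and microtubule plus ends had a median log2 ratio of −0.72, with 16 of 17 listed, 9 at least 1.5-fold lower (26.3% of all entries) and 1 as much higher (16.9% of all entries). MAPRE1, the end-binding protein on which other plus-end proteins gather, had 569 FPKM in No-SCI and 470 FPKM in SCI. CLASP2, which stabilises plus ends, had 418 and 142 FPKM, CLASP1 had 198 and 111 FPKM, and CLIP2, a linker of growing ends, had 74.9 and 18.4 FPKM. CKAP5, the polymerase that adds dimers to the end, had 46.0 and 17.4 FPKM, and MAPRE3, the neuronal end-binding protein, had 51.3 and 23.9 FPKM. Of the gamma tubulin ring complex, TUBGCP2 had 49.1 and 30.3 FPKM, TUBGCP4 had 17.4 and 8.55 FPKM and MZT2B had 295 and 208 FPKM. Many of these genes carry values of more than 6 digits, which may be sums of several estimates, so their levels relative to the tubulins are uncertain.

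**Figure D4:**
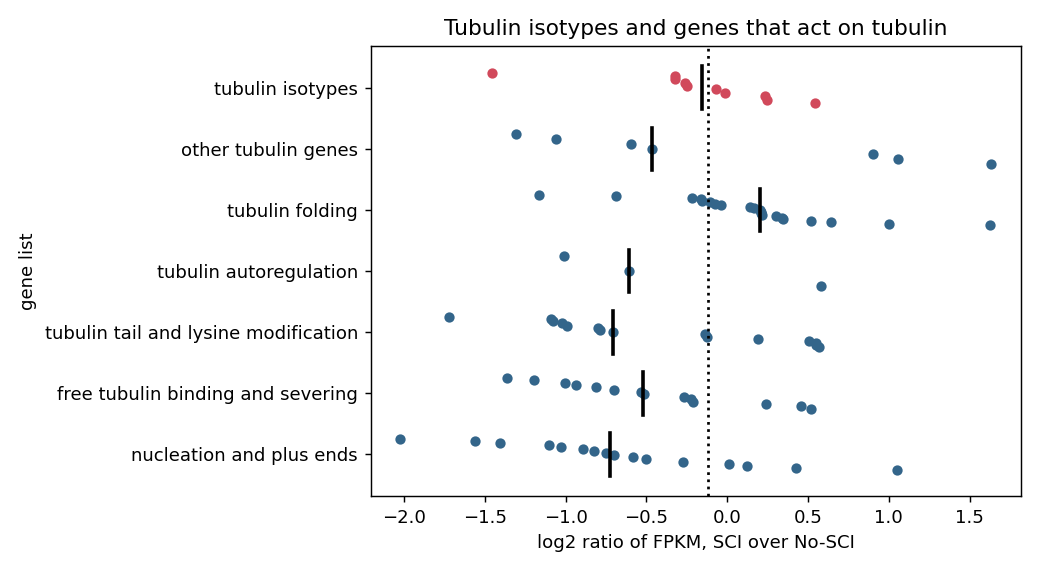
Log2 ratio of SCI over No-SCI for the 10 tubulin isotypes (red) and for 6 lists of other tubulin genes and genes that act on tubulin (blue), each point a gene, each black bar the median of its list and the dotted line the median of all entries at −0.12. The folding list has its median at 0.20 and the modification, binding and plus-end lists have theirs at −0.71, −0.52 and −0.72.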

How the data were processed

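Stranded libraries were prepared from total supernatant RNA after ribosomal RNA removal. All libraries were reduced by the authors to an equal read number, STAR 2.5.4b placed the reads on rn6, per the labels, and Cuffdiff (cufflinks 1.3.0, scaling by upper quartile) gave FPKM. In the deposited table FPKM has 1 value per group and gene. The table gives no depth per library. The columns of the authors' own comparison (fold change, log2 fold change, p-value, q-value and a significance call) were not used.

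From the FPKM values the log2 ratio of SCI over No-SCI (no pseudocount), ranks, percentiles, shares, sums and medians were computed with Python 3.11.15, numpy 2.4.6 and pandas 2.3.3, and figures with matplotlib 3.10.9. A fold of 1.5 was counted as a description, not a test, and the counting was tested on simulated data. For a symbol listed more than once the entry with the larger mean was taken; each tubulin has 1 entry. The genes and lists were chosen with earlier results of these data known. Named are the 10 tubulins, the 3 genes of highest mean in each list, and genes of the 6 tubulin lists past 1.5-fold with a mean of at least 10 FPKM. One gene of these is not reported here. Marker lists other than the neuron, oligodendrocyte and astrocyte lists are given as counts, sums and medians. NEFL, NEFH, CNP, MAG, ASPA, MYH1, MYH2, TUBA8, TUBB1 and markers without an entry were named after their values were seen. The counts and the median over entries with a mean of at least 100 FPKM were added after the values were seen. All 10 symbols matched RefSeq of GRCr8, from which the promoter letters come, 1 window per symbol. Other lists, of microglia, endothelial, blood and astrocyte markers, had median log2 ratios of −0.20, −0.21, −0.30 and −1.36, with 9 of 10, 7 of 10, 6 of 10 and 6 of 11 genes listed.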

Additional observations from a re-analysis of the deposited data

How the results depend on the processing

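No value per library exists, so leaving out a replicate could not be done. The groups were different animals and no test was run, so no paired analysis applied. The median log2 ratio of the 10 tubulins, −0.16, was −0.041 with the median of all entries centred at 0, −0.055 with both groups scaled to the same upper quartile, −0.113 with both scaled to the same total, −0.167 as a mean over the genes, −0.25 over the 13 listed alpha and beta tubulin genes, and −0.067 without TUBB4A, an alternative chosen after seeing the data. Pseudocounts, a mean of at least 10 FPKM and subtracting 1 from every value, also chosen after seeing the data, moved it by less than 0.01. The count of tubulins at least 1.5-fold higher went from 0 to 1 under each of the 3 scalings and with a fold of 1.3, the gene being TUBB5 each time. The count at least 1.5-fold lower was 1 under all the alternatives tried, folds of 1.3 and 2 included. The sign of 8 of the 10 ratios was the same under the 3 scalings, and those of TUBA1B and TUBB2A changed sign under 2 and 3 of them. The other alternatives, such as pseudocounts, cannot change the sign of a ratio. The ratio of TUBB4A ran from −1.46 to −1.34. As a share of all 13 listed genes TUBB4A was 4.08% in No-SCI and 1.53% in SCI.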

Other observations

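The isotypes share long stretches of sequence, and GRCr8 lists 26 alpha and beta tubulin pseudogenes, 14 of them copies of TUBA1B, 5 of TUBA1A and 4 of TUBB4B. None of the 26 has an entry in the table under its symbol. How reads that match several copies were divided is not given in the sources used here, so the levels of TUBA1A against TUBA1B and of TUBB2A against TUBB2B are uncertain. TUBB2A was 1.09 times as abundant as TUBB2B in No-SCI and 1.36 times in SCI. TUBA4A and TUBB2B, with 592.6 and 591.9 FPKM in No-SCI, had nearly the same level in that group and log2 ratios of −0.26 and −0.32.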
